A study of Sus scrofa with 12 samples.

Results

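Cleavage products of messenger RNA were listed for the loin muscle of 4 female Hampshire pigs, 2 titled high MM and 2 titled low MM, out of 12 animals and 3 breeds in the series. The series title names muscle mass, while the labels leave the letters MM unexplained. All 4 animals were recorded at day 180 and had been housed and fed alike until slaughter at 100 ± 2 kg. Both high MM samples carry the label heavy for shear force and both low MM samples the label light, so muscle mass and shear force cannot be told apart. Each sample is a separately labelled animal of intact tissue, with no treatment or transgene. Genes and cuts were assigned to a side when they were listed in both tables of that side and in neither table of the other. By this rule the high MM side held 3 of the 598 targets listed in any Hampshire table and the low MM side held 18.

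A microRNA guides an Argonaute protein to a matching stretch of a transcript. Where pairing is nearly complete, the Argonaute protein can cut the transcript opposite the middle of the microRNA, while the partial pairing usual in animals mainly lowers translation and stability without such a cut. Degradome sequencing, also called PARE, reads the 5′ ends of uncapped fragments, and the program PAREsnip pairs such ends with small RNAs. Degradation by other routes also leaves uncapped ends, so a listed pair is a candidate for cleavage. Loin is a muscle of mostly fast, glycolytic fibres, and miR-1, miR-133, miR-206, miR-208 and miR-499 are the families best known from striated muscle.

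The 4 tables held 8091 of the 19855 rows of the series, namely 962 and 2458 for high MM replicates 1 and 2, and 2031 and 2640 for low MM replicates 1 and 2. A row pairs a small RNA with a window of sequence, and overlapping windows repeat the same cut. A cut is counted here once per small RNA, chromosome and position (the listed start plus the cleavage position). The authors scaled abundance by a factor, and both low MM tables hold 2 classes of it. Factors were 0.407 and 0.417 throughout the high MM tables. In the low MM tables they were 0.557 and 0.472 in one class of row and 0.0748 and 0.0638 in the other, which took 54.5% and 61.1% of the rows. The sources used here give neither what the classes stand for nor the depth of any library. Of the 10 skeletal muscle fibre markers searched, 5 were listed in some Hampshire table (ACTA1, CKM, MYH2, MYH4 and NEB). None of the endothelial, fibroblast, satellite cell or Schwann cell markers was listed, while the adipocyte marker LPL appeared in high MM replicate 2, B2M in a table of each side and CD14 in low MM replicate 1.

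The number of targets did not separate high from low MM. Targets numbered 100 and 264 in the high MM tables and 130 and 207 in the low MM tables (182 ± 116 against 168.5 ± 54.4, SD, n = 2 each; exact permutation p = 1, two-sided). The high MM tables bracketed the low MM tables. Rows of factor 0.15 or more are the only class that all 4 tables share. In those rows the low MM tables held 43 and 46 targets, both below the high MM tables (difference in means 137.5, exact permutation p = 0.333). The restriction takes rows from the low MM tables only, so whole high MM tables were set against parts of the low MM tables. With 2 tables a side there are 6 relabellings and 0.333 is the smallest two-sided p they allow, so no comparison of single values could pass 0.05. Cuts numbered 114 and 543 in the high MM tables against 181 and 276 in the low MM tables (328.5 ± 303 against 228.5 ± 67.2, SD, n = 2 each; exact permutation p = 1). Unnamed small RNAs, which are numbered separately in each table, held 82.7% of the cuts of high MM replicate 2 and 28.1%, 33.1% and 46.7% of those of high MM replicate 1 and low MM replicates 1 and 2.

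**Figure D1:**
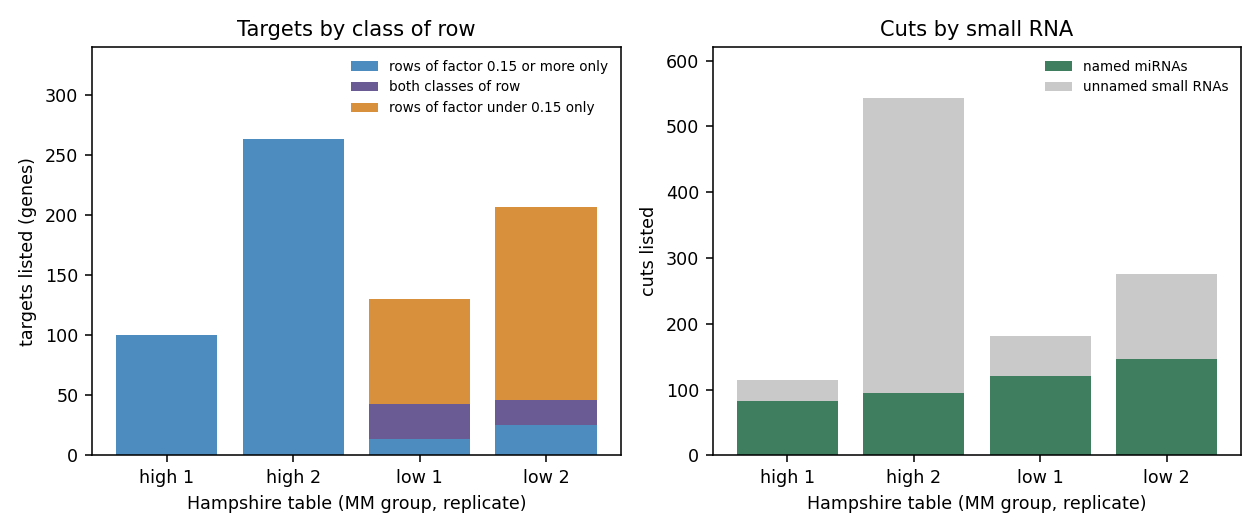
Targets listed per Hampshire table (left, genes, stacked by class of scaling factor) and cuts listed per table (right, stacked by named and unnamed small RNA), with 1 bar per animal. Rows of factor under 0.15 occur in the low MM tables only, and high MM replicate 2 stands out for its unnamed small RNAs.

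Most targets were seen once. Of the 598 targets, 527 (88.1%) were listed in a single table, 14 in both high MM tables and 39 in both low MM tables. Pairs of a high and a low MM table shared 20 to 25 targets, more than the high MM pair and fewer than the low MM pair. In rows of factor 0.15 or more the low MM pair shared 8 targets, the high MM pair 14 and mixed pairs 5 to 13. The low MM tables themselves can be read against their own second class. Of the targets in the smaller class of low MM replicate 1, 67.4% recurred in the other class of the same table, and 45.7% did so in replicate 2.

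Of all 598 targets, 0.502% (3) were listed in both high MM tables and neither low MM table: PGAM2, LAMA2 and GANC. No test applies to the membership of a single gene. PGAM2 encodes the muscle form of phosphoglycerate mutase, a step of lower glycolysis. Its cut by miR-4334-3p at position 48710761 of chromosome 18 (build not given in the sources used here) reached category 0 in both high MM tables, the strongest of the 5 categories from 0 to 4. Of all targets of high MM replicates 1 and 2, 19.0% and 6.44% reached category 0. The normalized abundance was 0.0129 in replicate 1 and 0.146 in replicate 2, from fragment abundances of 2 and 23. The fragment abundance therefore differed widely between the high MM animals, and the alignment score of 4.5 was the weakest that the tables hold. miR-4334-3p fragments there matched 63 to 65.7 positions, and neither low MM table nor any table of Pietrain or Polish Large White listed PGAM2.

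LAMA2 encodes the α2 chain of laminin in the basement membrane around muscle fibres. Its cut by miR-4331-5p at position 33772195 of chromosome 1 had category 0 in high MM replicate 1 and category 2 in replicate 2, with an alignment score of 2 in both. The fragment abundance was 20 in each table and the normalized abundance 1.36 and 2.78. By normalized abundance the LAMA2 cut ranked 1 of 82 named cuts in high MM replicate 1 and 5 of 94 in replicate 2. The fragments matched 6 and 3 positions, few for miR-4331-5p, whose fragments matched a median of 1507 positions in high MM replicate 1. In high MM replicate 1 LAMA2 was also listed with miR-432-5p, 648 kb away, from a fragment matching 843 positions. The LAMA2 cut by miR-4331-5p was in no table of the other breeds, though the gene was listed once, in a low MM table of Polish Large White.

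GANC encodes a neutral α-glucosidase. It was listed at a different position in each high MM table, 14.3 kb apart, at normalized abundances of 0.0162 and 0.224 and categories 2 and 3. Its fragments matched 1506.5 and 111.9 positions, so GANC shares no cut between the animals. The sets of cuts therefore held only the PGAM2 and LAMA2 cuts on the high MM side, 0.559% of 358 named cuts. In the other breeds GANC was listed in 1 Pietrain and 1 Polish Large White table, both titled low MM. The workbook tabs exchange high and low for Pietrain.

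**Figure D2:**
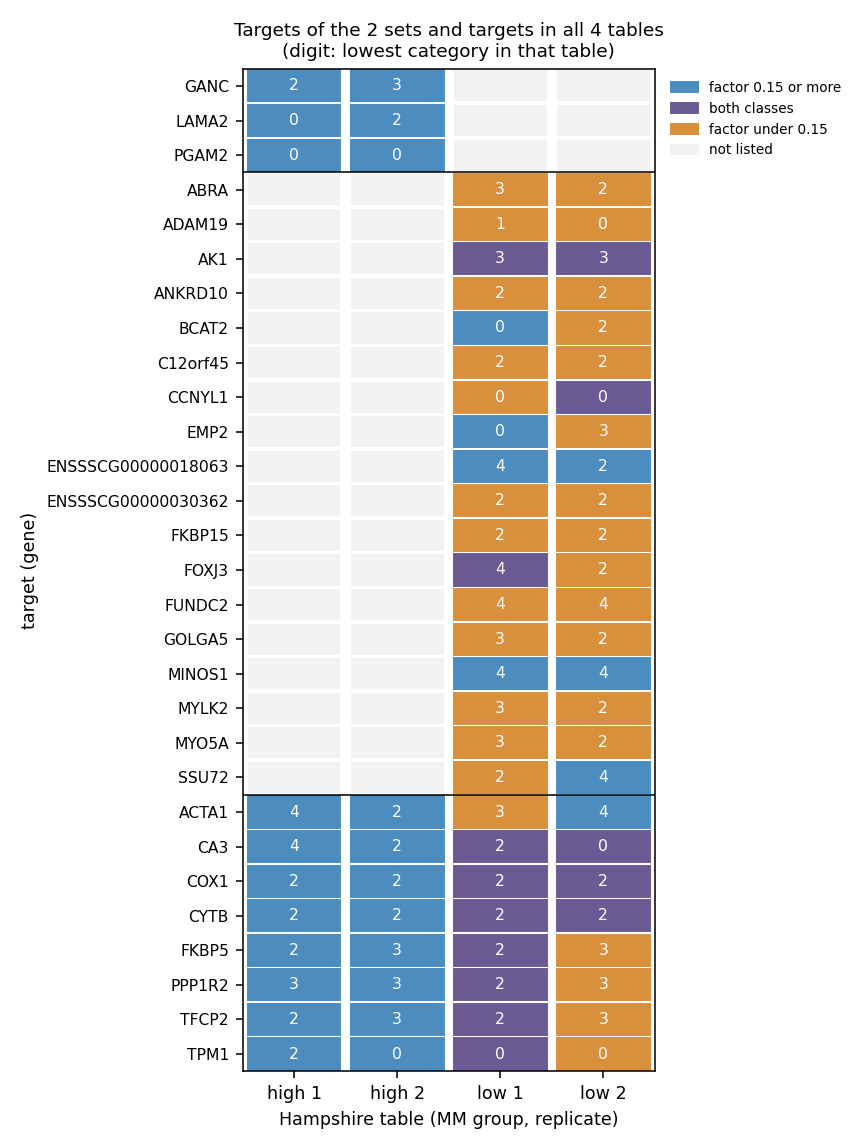
Rows are the 3 targets of both high MM tables only, the 18 of both low MM tables only and the 8 in all 4 tables, and columns are the 4 Hampshire tables. Colour gives the class of scaling factor of the rows and the digit the lowest category (0 strongest). Most cells of the low MM set come from rows of factor under 0.15, a class that the high MM tables lack.

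On the low MM side 3.01% of the 598 targets (18) were listed in both tables and in neither high MM table. Of these, 15 shared a position between the low MM animals and 11 shared a named cut. The other members at a shared position rest on unnamed small RNAs. BCAT2, EMP2 and FKBP15 had no shared position, with gaps of 684 bases, 3.23 kb and 6.17 kb between their positions. Lowest categories of 0 in both low MM tables were found for CCNYL1 only, and of 3 or 4 in both for AK1, FUNDC2 and MINOS1.

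Of the 18 low MM targets, MYLK2 and AK1 belong to the gene lists searched. MYLK2, the skeletal muscle kinase of myosin light chain, was cut by miR-4331-5p at position 35511064 of chromosome 17, with normalized abundances of 0.00662 and 0.0190. Its fragments matched 226 and 268.3 positions, so their place in the genome is uncertain. AK1, adenylate kinase of the cytosol, was paired with miR-376c-3p at position 268356061 of chromosome 1. AK1 had fragment abundances of 2 and 1 and normalized abundances of 0.0464 and 0.0262 in rows of factor 0.15 or more. The AK1 values in rows of factor under 0.15 were 11 and 4 for the fragment and 0.0356 and 0.0142 after normalization. MINOS1 encodes a small subunit of the complex that shapes mitochondrial cristae. Its cut by miR-185 at position 78045798 of chromosome 6 had a fragment abundance of 1 in each low MM table, category 4 and normalized abundances of 0.0278 and 0.0205. FUNDC2, an outer mitochondrial membrane protein, was likewise listed at a fragment abundance of 1 in both tables, with miR-149 at position 125366204 of chromosome X and normalized abundances of 0.00374 and 0.00399. AK1 and MINOS1 thus stood on both animals and on the class of row that all tables share, at low abundance.

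ABRA, an actin-binding protein of striated muscle, was listed at position 30720385 of chromosome 4 with an unnamed small RNA in each low MM table. The same abundances, 20 and 40 for the fragment and 0.0356 and 0.0319 after normalization, were given for MYO5A (a myosin motor of vesicle transport), GOLGA5 (a golgin) and the unnamed gene ENSSSCG00000030362. These 4 targets carry the same values in each table, so they cannot be counted as separate observations. The 15 targets with a shared position gave 12 distinct patterns of abundance. The unnamed RNA of low MM replicate 1 held 58 positions and that of replicate 2 held 98, of which 5 were shared (8.62% and 5.10%). BCAT2, the mitochondrial aminotransferase of branched-chain amino acids, was listed at category 0 in low MM replicate 1 and category 2 in replicate 2, with different small RNAs.

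CCNYL1, a cyclin of the cyclin Y family, was paired with let-7f-5p at position 110911270 of chromosome 15. CCNYL1 had category 0 in both low MM tables, a fragment abundance of 10 in each, normalized abundances of 0.249 and 0.106, and 3 and 6 matching positions. Both low MM animals thus gave CCNYL1 the strongest category, which 11.5% and 10.6% of all targets of these tables reached. Its alignment score was 4.5 in both, the weakest that the tables hold. ADAM19, a membrane-bound metalloproteinase, was paired with miR-23a and miR-23b at the same position, 65814595 of chromosome 16. ADAM19 had categories 1 and 0, fragment abundances of 7 and 8, normalized abundances of 0.524 and 0.255, and 1 and 2 matching positions. Its lowest alignment scores were 4 to 4.5. Both ADAM19 cuts ranked 6 of 121 named cuts in low MM replicate 1 and 8 of 147 in replicate 2. All ADAM19 rows and most CCNYL1 rows had a factor under 0.15, and each gene was listed in 3 tables of the other breeds, all 3 from Pietrain for CCNYL1. The let-7f-5p cut itself was also in 1 low MM table of Polish Large White, though CCNYL1 was not listed there.

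SSU72, a phosphatase of the RNA polymerase II tail, was paired with miR-19b at position 63728362 of chromosome 6. Its fragment abundance was 2 and 1, and its normalized abundance 0.0374 and 0.472 in low MM replicates 1 and 2. The more abundant fragment thus had the lower normalized value, since the rows came from different classes of factor and matched 4 and 1 positions. FOXJ3, a forkhead transcription factor, was listed with miR-127 at position 169134065 of chromosome 6 at a fragment abundance of 1 in each table. The normalized abundance of FOXJ3 at that cut was 0.186 and 0.0128, from rows of factor 0.15 or more in replicate 1 and under 0.15 in replicate 2. In rows of factor under 0.15 it was 0.0249 in replicate 1. In low MM replicate 2 the files also name FOXJ3 at a miR-4331-5p position 33.5 Mb from the nearest other FOXJ3 position. ANKRD10 was paired with miR-574-3p (normalized abundances of 0.0340 and 0.0304, 44 and 42 matching positions) and C12orf45 with miR-4331-5p (0.0633 and 0.0371, 189 and 206.4 matching positions). C12orf45 overlaps ALDH1L2, a mitochondrial enzyme of folate metabolism that the files name at the same cut and that was not in the set. EMP2, a tetraspan membrane protein, and FKBP15 completed the set, together with the mitochondrial gene ENSSSCG00000018063. The miR-98 cut of the latter at mitochondrial position 3591 was also in high MM replicate 2, in a row naming no gene, so its place in the set rests on annotation.

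Most of the low MM set rested on a class of row that is missing at high MM. For 10 of its 18 targets all rows had a factor under 0.15. In rows of factor 0.15 or more, 3 of 409 targets (0.733%) were listed in both low MM tables only, namely AK1, MINOS1 and ENSSSCG00000018063. In the same rows the high MM side grew to 6 of 409 (1.47%), adding CNTNAP2, DSP and MYH2 to PGAM2, LAMA2 and GANC. CNTNAP2, DSP and MYH2, named after their values were seen, were in low MM replicate 2 in rows of factor under 0.15 only. GANC, CNTNAP2 and MYH2 shared no position between the high MM tables, while AK1, MINOS1 and ENSSSCG00000018063 each shared a position between the low MM tables. The high MM tables hold only rows of factor 0.15 or more, so the restriction takes rows from the low MM tables alone. It could only keep or enlarge the high MM sets and keep or shrink the low MM sets. The direction of the change was thus fixed in advance, and only its size was open. For targets the larger side changed from low to high MM. For named cuts the low MM side stayed the larger, with 4 against 3.

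**Figure D3:**
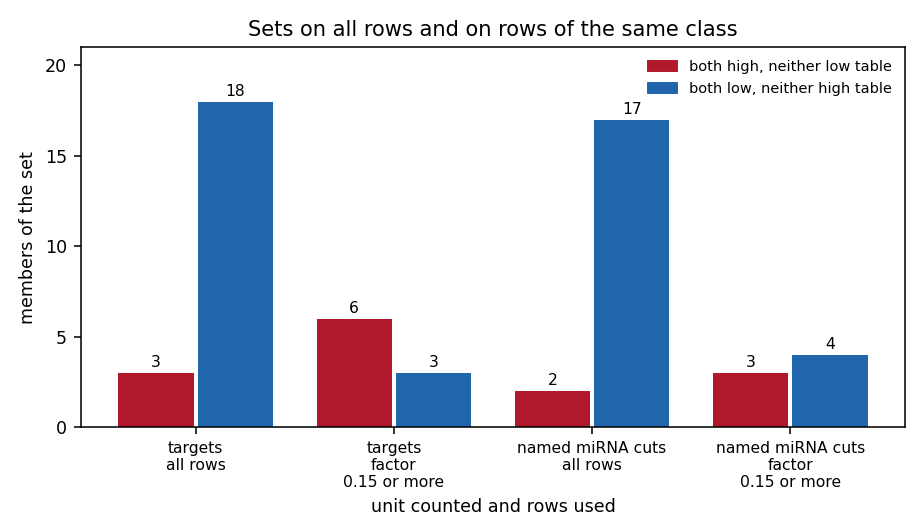
Number of targets and of named cuts in both tables of one side and neither of the other (vertical axis, members), using all rows or rows of factor 0.15 or more. On all rows the low MM sets hold 18 targets and 17 cuts against 3 and 2, while on the shared class of row they hold 3 and 4 against 6 and 3. The restriction removes rows of the low MM tables only.

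For named cuts the low MM side was the larger on all rows. Of 358 named cuts, 17 (4.75%) were in both low MM tables and neither high MM table, and 14 of them fell in a named gene. Mitochondrial transcripts, which encode respiratory chain subunits, gave 2 cuts of the low MM set. miR-155-5p in ND5, of complex I, at position 14725 had fragment abundances of 12 and 15 and normalized abundances of 0.0150 and 0.0148 in the low MM rows of factor under 0.15. The ND5 cut in rows of factor 0.15 or more had fragment abundances of 1 and 1 and normalized abundances of 0.00928 and 0.00726. miR-133a-3p in COX3, of complex IV, at position 10260 had fragment abundances of 2 and 3 and normalized abundances of 0.0170 and 0.0228 in rows of factor 0.15 or more. High MM replicate 2 listed miR-133a-3p in COX3 1 base away, at position 10259, with 52 rows and a normalized abundance of 0.0324, so the COX3 cut leaves the set when cuts 1 base apart are merged (16 cuts). The nuclear complex IV subunit COX7A1 was cut by miR-92b-3p at position 45519295 of chromosome 6 in the low MM tables (0.00701 and 0.0132). The gene COX7A1 itself was also listed in high MM replicate 2.

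The low MM cuts outside named genes came from miR-660, at position 64758297 of chromosome 2 and position 104888313 of chromosome 9, and from miR-4331-5p at position 597374 of chromosome 8. Both miR-660 cuts had the same values, 0.115 and 0.0911, and the chromosome 8 cut had the values of MYLK2. In rows of factor 0.15 or more, 4 of 205 named cuts (1.95%) were low MM only, miR-376c-3p in AK1, miR-185 in MINOS1, miR-155-5p in ND5 and miR-133a-3p in COX3. On the high MM side 3 of 205 (1.46%) remained or joined, the PGAM2 and LAMA2 cuts and miR-4331-5p in DSP, a protein of cell junctions. The DSP cut had the normalized abundances of PPP1R2 with miR-4331-5p in both high MM tables.

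The small RNAs themselves were listed unevenly. Of 79 named small RNAs, 0 (0.0%) were in both high MM tables and neither low MM table, and 12 (15.2%) were in both low MM tables and neither high MM table. These were miR-140-3p, miR-149, miR-155-5p, miR-185, miR-19b, miR-23a, miR-376c-3p, miR-505, miR-574-3p, miR-660, miR-6782-3p and miR-92b-3p. The low MM cuts in FUNDC2, ND5, MINOS1, SSU72, AK1, ANKRD10 and COX7A1 belong to small RNAs of this group. The same holds for both miR-660 cuts and the miR-23a cut in ADAM19. The high MM tables list no pair of any kind for these small RNAs. This count used all rows and was not repeated on rows of factor 0.15 or more, the only class of the high MM tables. The low MM set cuts of miR-149, miR-23a, miR-574-3p, miR-660 and miR-92b-3p came from rows of factor under 0.15 only. Whether the small RNAs were present in the high MM animals is not given by these tables. In all 4 tables were miR-129a-5p, miR-1343, miR-143-3p, miR-206, miR-378 and miR-4331-5p.

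The let-7 family, whose members share a seed and are abundant in differentiated tissue, held a larger share of all cuts, unnamed small RNAs included, in the low MM tables. It had 0 of 114 cuts in high MM replicate 1, which allows a share of up to 2.63% by the limit of 3 counts and 3.26% by the 95% Wilson interval, and 7 of 543 (1.29%, 95% Wilson interval 0.626 to 2.64) in replicate 2. The low MM tables had 11 of 181 (6.08%, 3.43 to 10.6) and 9 of 276 (3.26%, 1.72 to 6.08). Intervals and limits cover counting error only, and cuts at the same position are not independent. The means of 0.645% ± 0.912 and 4.67% ± 1.99 (SD, n = 2 each) did not overlap between tables (exact permutation p = 0.333, the smallest possible). Over named cuts alone the family held 0 of 82 and 7 of 94 at high MM and 11 of 121 and 9 of 147 at low MM. There the share of high MM replicate 2 lay above that of low MM replicate 2, so the groups overlapped. In rows of factor 0.15 or more the low MM mean was 18.2% ± 3.07, from 10 of 49 and 9 of 56 cuts (10 of 47 and 9 of 33 named cuts).

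Few positions carried the let-7 share. In ND5 at mitochondrial position 14460, let-7a, let-7e, let-7f-5p, let-7i-5p and miR-98 were all listed, in high MM replicate 2 and both low MM tables. The normalized abundance of let-7a in ND5 was 0.0146 in high MM replicate 2 and 0.0650 and 0.0555 in low MM replicates 1 and 2, and the position was not listed for high MM replicate 1. These are the largest values of either class of row. That of low MM replicate 2 came from rows of factor under 0.15, and that of replicate 1 from the other class. The family held 3 positions in high MM replicate 2 and 5 and 4 in the low MM tables, including neighbours 1 or 2 bases from that in ND5. Other positions of the family were that of miR-98 at mitochondrial position 3591 (high MM replicate 2 and both low MM tables) and those in CCNYL1 (both low MM tables), in FOPNL (low MM replicate 1) and in BIN1 (high MM replicate 2). In Polish Large White the family held 1.11% ± 1.57 of cuts at high MM and 3.03% ± 0.407 at low MM (SD, n = 2 each). In Pietrain it held 4.65% ± 0.224 in the tables titled high MM and 5.45% ± 3.27 in those titled low MM (SD, n = 2 each), and the workbook tabs exchange high and low there, which turns this direction. Whether breeds differ in this was not tested.

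Muscle miRNAs held 1 of 114 and 4 of 543 cuts in the high MM tables and 3 of 181 and 7 of 276 in the low MM tables. The shares of 0.807% ± 0.0994 and 2.10% ± 0.621 (SD, n = 2 each) did not overlap (exact permutation p = 0.333), with cuts of unnamed small RNAs in the base. Over named cuts alone they came from 1 of 82 and 4 of 94 at high MM and 3 of 121 and 7 of 147 at low MM. On that base high MM replicate 2 lay above low MM replicate 1, so the groups overlapped. Keeping categories 0 to 2 turned the direction, to 1.56 percentage points more at high MM. miR-499-5p, which lies in a myosin gene, was paired with CA3 at position 51227874 of chromosome 4, at 0.0541 in high MM replicate 2 and 0.00263 and 0.0166 in the low MM tables. miR-208b was listed in low MM replicate 2 only, and miR-206 in all 4 tables. miR-4331-5p held 27.2% and 7.73% of cuts in the high MM tables and 29.3% and 24.6% in the low MM tables (exact permutation p = 0.667). Category 0 or 1 was reached by 19.3% and 4.79% of cuts in the high MM tables and 20.4% and 13.4% in the low MM tables (exact permutation p = 0.667).

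Targets in all 4 tables were ACTA1 (skeletal actin), CA3 (carbonic anhydrase of slow fibres), COX1 and CYTB (subunits of complexes IV and III), FKBP5 (a co-chaperone of steroid receptors), PPP1R2 (an inhibitor of protein phosphatase 1), TFCP2 (a transcription factor) and TPM1 (a tropomyosin). At 8 positions the abundance could be compared in all 4 animals, by the largest value of either class of row. In rows of factor 0.15 or more only 4 positions were listed in all 4 tables, those of CA3, COX1 and CYTB. At 2 of 8 positions (25.0%) both low MM values lay above both high MM values, and at 3 of 8 (37.5%) both high MM values lay above both low MM values. limma on log2(normalized abundance + 0.01) called 0 of 8 (0.0%) in either direction at a Benjamini-Hochberg adjusted p of 0.05, and 0 had an unadjusted p under 0.05.

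The low MM positions were those of CYTB and CA3. miR-206 in CYTB at mitochondrial position 16421 had normalized abundances of 0.0361 and 0.235 in the high MM tables and 0.684 and 0.504 in the low MM tables, means 4.38-fold higher at low MM. On the log2 scale high minus low was -2.49 ± 1.06 (SE, n = 2 each; limma adjusted p = 0.285). miR-378, a miRNA of metabolically active tissue, in CA3 at position 51227536 of chromosome 4 had 0.00884 and 0.0265 at high MM and 0.0714 and 0.0944 at low MM, means 4.69-fold higher at low MM. High minus low in CA3 was -1.81 ± 0.81 (SE, n = 2 each; limma adjusted p = 0.285). For CA3 and CYTB the largest values of the low MM tables came from rows of factor 0.15 or more, the class that the high MM tables have. In that class the fragment abundances of CA3 were 1 and 2 at high MM and 5 and 8 at low MM, and those of CYTB with miR-206 were 4 and 22 against 48 and 46. The groups did not overlap at either position, and neither passed the test.

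The high MM positions, in TPM1, FKBP5 and PPP1R2, all belong to miR-4331-5p. In low MM replicate 2 all 3 were listed in rows of factor under 0.15 only, a class that the high MM tables lack. In high MM replicate 1 and the low MM tables the 3 genes had the same normalized abundances, 0.0162, 0.0150 and 0.0127, so they are not separate measurements there. In high MM replicate 2 TPM1 stood at 1.67, FKBP5 at 0.224 and PPP1R2 at 0.0327. High minus low for TPM1 was 3.14 ± 1.97 on the log2 scale (SE, n = 2 each; limma adjusted p = 0.428), FKBP5 reached 1.72 ± 1.22 (adjusted p = 0.428) and PPP1R2 0.49 ± 0.78 (adjusted p = 0.634). The rows at these positions matched medians of 1275 to 1704.1 places per table, and the TPM1 value of high MM replicate 2 comes from a fragment matching 5. Without high MM replicate 2 each of the 3 differences was 0.14.

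ACTA1 with miR-129a-5p stood at 0.00625 and 0.0408 in the high MM tables and 0.00234 and 0.00761 in the low MM tables. The ACTA1 value of low MM replicate 1 came from rows of factor under 0.15. CYTB with miR-1343, at position 16219, stood at 0.00625 and 0.0385 against 0.0591 and 0.0358. COX1 with miR-143-3p stood at 0.0187 and 0.0128 against 0.0181 and 0.0290. High and low MM overlapped at each of these positions (limma adjusted p = 0.448, 0.448 and 0.648). The number of calls depended on single animals, with 6 of 8 called without high MM replicate 1 and 3 of 8 without high MM replicate 2, where the lone high MM animal is assumed to vary like the low MM pair.

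**Figure D4:**
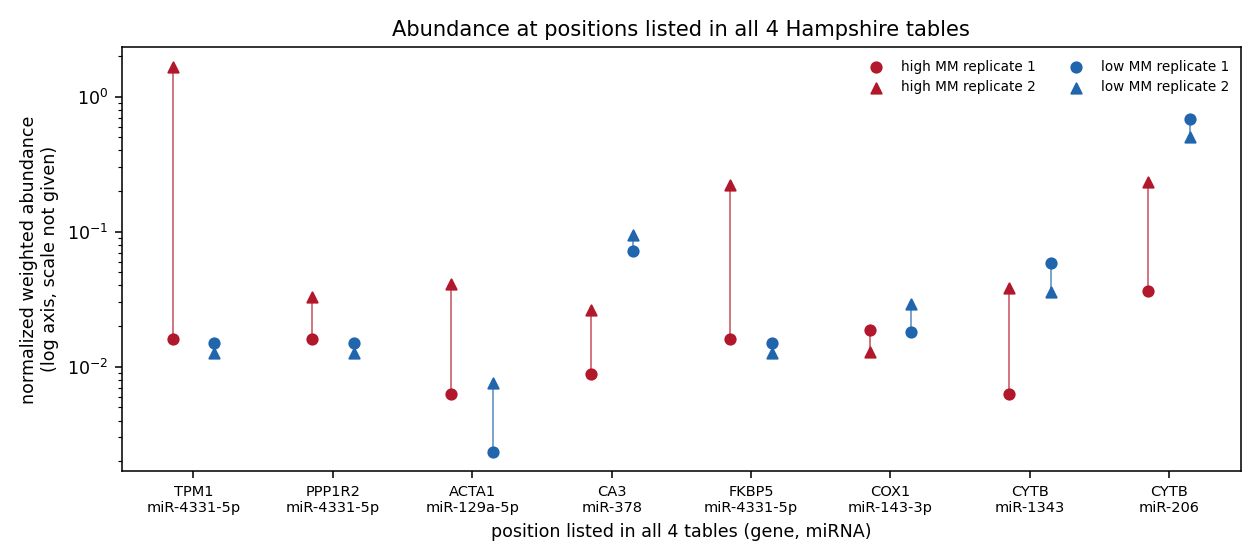
Normalized weighted abundance (log axis, scale not given) at the 8 positions listed in all 4 Hampshire tables, with 1 point per animal and lines joining the animals of a group. Low MM lies above high MM at CA3 with miR-378 and CYTB with miR-206, and high MM replicate 2 is far above the others at TPM1.

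Genes of muscle function were then read by list, as counts without a test. Of 20 glycolysis and glycogen genes 10 were listed, PGAM2 in the high MM tables only and GPI (glucose phosphate isomerase) in 1 high and 2 low MM tables. ENO3, PGM1 and PYGM were in 1 table of each side. Of 13 mitochondrially encoded genes 6 were listed, COX1 and CYTB in all tables, ND5 and COX3 in 1 high and 2 low MM tables, ND1 in 1 of each side and COX2 in high MM replicate 2. Of 15 fast-fibre genes 7 were listed, with TPM1 in all tables, MYLK2 at low MM only, ATP2A1 (the fast calcium pump) in 1 high and 2 low MM tables and MYH2 (myosin heavy chain 2A) in 2 high and 1 low MM tables. Only ATP2A2 of 12 slow-fibre genes was listed, in high MM replicate 2. Over all lists the sets held PGAM2 and LAMA2 on the high MM side and MYLK2 and AK1 on the low MM side.

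Of 18 sarcomere and Z-disc genes 7 were listed, ACTA1 in all tables and ACTN2, DES, NEB and TMOD4 in 1 table of each side. The ACTN2 and DES positions with unnamed small RNAs were the same in a high and a low MM table. LAMA2 was the only listed gene of 17 for the extracellular matrix. Of 9 genes for creatine and nucleotide energy, CA3 was in all tables, AK1 at low MM only and CKM in high MM replicate 2. Of 25 nuclear genes for oxidative metabolism 4 were listed, led by COX7A1. Calcium handling had 3 of 13 genes listed, stress 3 of 13, translation 3 of 12, muscle growth signalling 2 of 20 (IGF2 and FSTL1, each in a low MM table), protein breakdown 2 of 19 (CAPN2 and PSMD1, both in high MM replicate 2) and myogenic regulators 1 of 16 (HDAC9, in high MM replicate 1). None of the 9 small RNA machinery genes was listed.

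Members were looked up in the 8 tables of Pietrain and Polish Large White. The titles and the workbook tabs exchange high and low for Pietrain, so counts are given by both readings unless the titles alone are named. The second reading was chosen after seeing the data. Of the 18 low MM targets 8 were in none of these tables. The other 10 had 20 listings in low and 9 in high MM tables by the titles, and 16 and 13 by the tabs. More low than high MM listings were found for all 10 by the titles but for 5 by the tabs, where 4 had more high MM listings and SSU72 was even. All 598 Hampshire targets together had 213 low and 131 high MM listings by the titles and 175 and 169 by the tabs, and 28.3% of them were in a table of another breed. Among rows of factor 0.15 or more the 18 targets had 6 low and 7 high MM listings by the titles, where only 2 of the 4 low MM tables have such rows. MYLK2 and C12orf45 were each in 3 low and 2 high MM tables by the titles and in 4 and 1 by the tabs. SSU72 was in 2 low and 0 high MM tables by the titles and in 1 of each by the tabs. The 3 high MM targets had 3 low and 0 high MM listings by the titles, and 2 and 1 by the tabs. The PGAM2 and LAMA2 cuts of the high MM set were in none of the 8 tables. Of the 17 low MM cuts 7 were in none of them. The other 10 had 20 listings in low and 12 in high MM tables by the titles, not counted by the tabs.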

How the data were processed

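Total loin RNA with an integrity number above 7 went into the PARE libraries, per the labels' protocols. The submitters' processing notes list CASAVA 1.8.2 and FastQC. The sources used here do not give aligner, build, annotation or row filter. Category, alignment score and fragment abundance are score values of PAREsnip, per the file headers. The deposited p-value is rounded to 2 decimals. The weighted abundance, a signal, divides fragment abundance by matching positions, and the normalized signal multiplies it by a factor of the authors. Of fragment abundances of 20 or more, 83.7% are multiples of 20, so they were not read as counts and no depth is known. A total of 10 weighted values in high MM replicate 2 look like dates, and the factor of the table was used there. 1 row without a category was kept.

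The software was Python 3.11.15 with pandas 2.3.3, numpy 2.4.6 and scipy 1.17.1, matplotlib 3.10.9 for plots, and limma 3.58.1 in R 4.3.3. Normalized over weighted abundance gave the factor of each row, with 0.15 as the limit between classes. Genes without a symbol in a row took the symbol given elsewhere for the same identifier (562 of 598 targets had one and 541 matched the reference table). Sets were formed on all rows and repeated on rows of factor 0.15 or more. Single values were compared by two-sided exact permutation. The largest value per position and table entered limma, with Benjamini-Hochberg adjustment over the 8 positions. The code of the set rule and of the fit was run on simulated data with planted differences, which checks the code and not these results. Alternatives were category, p-value, matching positions, class of row, pseudocount, scaling, miR-4331-5p and single animals. Members, lists and tests were chosen with earlier results of these data known. Named were up to 20 targets and 15 cuts a side by category, number of cuts and alphabet, members kept in rows of factor 0.15 or more, up to 12 targets of all 4 tables, 4 per list and the 8 positions.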

Additional observations from a re-analysis of the deposited data

How the results depend on the processing

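Rows of factor 0.15 or more moved the target sets from 3 to 6 (high MM) and from 18 to 3 (low MM), and the low MM cuts from 17 to 4. This restriction takes rows from the low MM tables only, which fixed both directions in advance. Categories 0 to 2 left 8 low MM targets and 7 low MM cuts. At most 10 matching positions left 1 and 5 targets and 1 and 5 cuts on the high and low MM side. Without miR-4331-5p the high MM side kept 1 target and 1 cut, and p-values of at most 0.02 left 1 high MM cut. Leaving out each animal in turn gave 3 to 233 and 24 to 168 targets and 3 to 67 and 19 to 116 cuts, since a lone table must then stand for its side. Of the 21 targets, 15 stayed in their set without miR-4331-5p, 14 at the stricter p-value, 9 in categories 0 to 2, 6 in rows of factor 0.15 or more and 5 at 10 matching positions.

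High minus low turned from -625.5 to 734 rows in rows of factor 0.15 or more, and to 350.5 with the low MM tables read by factors under 0.15, an alternative added after seeing the data. Both alternatives take rows from the low MM tables only. In categories 0 to 2 it turned to -47.5 targets, -72.5 cuts and 0.938 percentage points for miR-4331-5p and 1.56 for muscle miRNAs. At most 10 matching positions turned it to -13.5 targets, -16.5 cuts, and 13.8 (category 0 or 1), 13.2 (miR-4331-5p) and 0.107 (muscle miRNAs) percentage points. Over single animals left out it ran from -1373.5 to 122.5 rows, -68.5 to 95.5 targets, -114.5 to 314.5 cuts, -12.1 to 2.37 (category 0 or 1) and -19.2 to 0.233 (miR-4331-5p) percentage points. The let-7 difference kept its direction in each alternative run, none of which took named cuts alone as the base. Reading Pietrain by the workbook tabs, added after seeing the data, moved low minus high listings in the other breeds from 11 to 3 for the 18 low MM targets and from 82 to 6 for all Hampshire targets. For the 3 high MM targets the same difference moved from 3 to 1.

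For the 8 positions limma called 0 to 6 when single animals were left out and 7 on fragment abundance as listed, where no scaling offsets the factors of the low MM tables. There TPM1, PPP1R2 and FKBP5 each turned to -2.13, and without the factor PPP1R2 and FKBP5 turned to -1.66 and -0.35. The other alternatives called 0. The replicate block also called 0 of 8. Over the 8 positions, departures of same-numbered animals from their group means correlated at -0.38. With 2 animals a side the crossed pairing must give the same size with the opposite sign. The labels tie no number to a shared litter or day, and the crossed pairing, added after seeing the data, called 0. The cause of these changes was not tested beyond what each alternative leaves out.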

Other observations

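The classes of row in the low MM tables allow a comparison within an animal. In low MM replicate 1, 36 cuts were listed in both classes, and their fragment abundance was a median of 8.5 times higher in rows of factor under 0.15, beside a ratio of factors of 7.44. In low MM replicate 2, 25 cuts were in both, with a median of 4.4 times beside a ratio of 7.40. After normalization the rows of factor under 0.15 differed from the others by a median of 0.18 ± 1.06 and -0.75 ± 1.42 on the log2 scale (SD over cuts, which are not replicates), so a normalized value depended on the class it was read from.

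A few small RNAs supplied most cuts of each table. In high MM replicate 1, miR-432-5p held 28.9% of cuts from fragments matching a median of 843 positions. In high MM replicate 2 the unnamed NA71/NA72 held 47.9% and NA57 26.7%, from fragments matching a median of 473 positions. The files also name CA3 at a position of chromosome 4 that lies 3.70 Mb from its other positions.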
